A study of Mus musculus with 9 samples.

Results

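The flavin-containing monooxygenases examined here were the 4 genes *Fmo1*, *Fmo2*, *Fmo4* and *Fmo5*, each found by its symbol in the array's annotation and each measured by 1 transcript cluster, a set of probes summarised to 1 value, among 22206 clusters on the array, of which 19572 carry 1 gene symbol. Whole liver RNA of male mice was hybridised to 9 Clariom S mouse arrays in 3 groups of 3. The first group was leptin-deficient C57BL/6JHamSlc-ob/ob mice given an extract of *Vigna umbellata*, the rice bean, by gavage at a dose of 100 mg/kg. The second was ob/ob mice of the same strain given vehicle, and the third was wild-type C57BL/6JHamSlc-+/+ mice given vehicle. Mice arrived at 6 weeks of age, were acclimatised for 1 week, were treated for 42 days and ate standard chow. The ob mutation removes leptin from the whole body from birth, so obesity, fatty liver and the loss of leptin cannot be told apart in the ob/ob groups. No wild-type mice given extract were analysed here. Each array was taken to be 1 mouse, as the design text gives 3 per group.

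Flavin-containing monooxygenases sit in the membrane of the endoplasmic reticulum and add an oxygen atom to soft nucleophiles, mostly nitrogen and sulfur, in drugs, dietary compounds and metabolites. They hold FAD, are reduced by NADPH and wait in an oxygenated state for a substrate, unlike the cytochromes P450, which need a separate reductase. Fmo1 is a broad-range enzyme of mouse liver, where females have more of it than males, and it also turns hypotaurine into taurine. Fmo2 is best known as the enzyme of lung. Fmo4 is a little-studied member that is usually low. Fmo5 is abundant in liver, accepts few of the classical substrates and inserts oxygen beside carbonyl groups, and mice without it stay leaner.

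In the RefSeq table for GRCm38.p6, *Fmo4* and *Fmo1* are direct neighbours on chromosome 1, 1 predicted gene lies between *Fmo1* and *Fmo2*, and *Fmo6* follows *Fmo2*. *Fmo5* stands apart on chromosome 3. RefSeq start-site windows, 250 bases before a start and 50 after it, were given for 3 of the 4 members and are printed because these members had higher means in both ob/ob groups than in wild type; there was none for *Fmo1*. Capitals mark matches, on either strand, to 8 short motifs: GCGTG (xenobiotic response element core), TTCNNNGAA (STAT), TGACNNNGC (antioxidant response element core), AGAACA (glucocorticoid receptor), TGTTTAC (forkhead), CACGTG (E-box), CCAAT and TATAAA. No marked match overlaps another.
Fmo2, chr1:162898709-162899008, GRCm38.p6, minus strand: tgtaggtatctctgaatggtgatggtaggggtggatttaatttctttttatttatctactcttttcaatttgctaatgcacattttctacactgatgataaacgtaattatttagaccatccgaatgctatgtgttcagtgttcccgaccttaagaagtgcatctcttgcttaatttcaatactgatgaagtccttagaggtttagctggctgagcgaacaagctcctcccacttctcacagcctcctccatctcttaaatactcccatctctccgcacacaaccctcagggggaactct
Fmo2, chr1:162898444-162898743, GRCm38.p6, minus strand: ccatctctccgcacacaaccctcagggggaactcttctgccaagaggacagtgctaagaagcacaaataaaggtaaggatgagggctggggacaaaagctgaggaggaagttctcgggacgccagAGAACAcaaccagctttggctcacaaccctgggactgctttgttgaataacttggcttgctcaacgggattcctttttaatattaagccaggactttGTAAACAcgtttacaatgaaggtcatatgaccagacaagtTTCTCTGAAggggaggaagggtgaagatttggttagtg
Fmo4, chr1:162812500-162812799, GRCm38.p6, minus strand: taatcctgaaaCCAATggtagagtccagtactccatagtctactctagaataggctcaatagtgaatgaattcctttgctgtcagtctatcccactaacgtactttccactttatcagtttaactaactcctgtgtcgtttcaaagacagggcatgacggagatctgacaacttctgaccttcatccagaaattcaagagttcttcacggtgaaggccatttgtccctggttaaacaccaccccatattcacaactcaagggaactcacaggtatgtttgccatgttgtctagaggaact
Fmo5, chr3:97628769-97629068, GRCm38.p6, plus strand: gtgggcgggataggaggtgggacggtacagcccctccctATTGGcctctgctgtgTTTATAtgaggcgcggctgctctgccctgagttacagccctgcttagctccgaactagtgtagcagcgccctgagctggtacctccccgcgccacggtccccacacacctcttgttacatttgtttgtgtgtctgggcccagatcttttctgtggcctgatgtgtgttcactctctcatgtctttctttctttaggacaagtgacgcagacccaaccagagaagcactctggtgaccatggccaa

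The first *Fmo2* window lies at the outer end of the gene and held 0 matches. The second begins 265 bases further into it and held 3. They were AGAACA beginning 125 bases before the start, a forkhead match 28 bases before it and a STAT match 12 bases after it. Over all 32851 windows of this length, 19% held AGAACA, 3.65% the forkhead motif and 8.3% the STAT motif. The *Fmo4* window held CCAAT, and the *Fmo5* window held CCAAT and TATAAA, which occur in 37.4% and 13.6% of all windows. None of the 4 windows held GCGTG (32.4% of all windows), TGACNNNGC (12.4%) or CACGTG (7.15%). A match describes letters and does not show a binding site. The *Fmo4* and *Fmo5* windows belong to starts 3523 and 19081 bases inside the outer ends of those genes.

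Values were deposited as log2 signal after SST-RMA, a robust multi-array average preceded by a transformation that widens compressed fold changes, so the sizes of differences depend on that step. Array medians lay between 5.07 and 5.36 log2, and ob/ob vehicle 3 and wild-type vehicle 3 lay away from their groups, with mean within-group correlations of 0.950 and 0.955, where the other 7 arrays had 0.967 to 0.986. Their interquartile ranges were narrow too, at 3.26 and 3.01 log2 (3.36 to 3.85 for the others). In order of replicate number the ranges were 3.48, 3.59 and 3.68 in ob/ob extract and 3.83, 3.85 and 3.26 in ob/ob vehicle. They were 3.47, 3.36 and 3.01 in wild type, so every extract array had a wider range than every wild-type array. All 10 hepatocyte markers, such as albumin, were above the silent-gene range on all arrays, with mean levels of 19.01 to 19.21 log2 in ob/ob extract, 18.90 to 19.15 in ob/ob vehicle and 19.23 to 19.44 for wild type. The median difference of these markers was 0.04 log2 for ob/ob vehicle and 0.08 for extract against wild type. It was 0.03 for extract against ob/ob vehicle, and 0 were called in any comparison. The silent-gene range was the middle 95% of 1080 olfactory receptor clusters on the same array, genes that liver does not use.

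All 4 genes had their highest mean in extract-treated ob/ob liver, their middle mean in ob/ob vehicle and their lowest in wild type, as the plot of values by array shows. *Fmo1*, *Fmo2* and *Fmo5* were above the silent-gene range on all 9 arrays. *Fmo4* was above it on 3 of 3, 3 of 3 and 2 of 3 arrays of ob/ob extract, ob/ob vehicle and wild type, so its wild-type level may be a bound. In whole tissue a change in the number of cells of a type and a change in RNA per cell cannot be told apart.

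**Figure D1:**
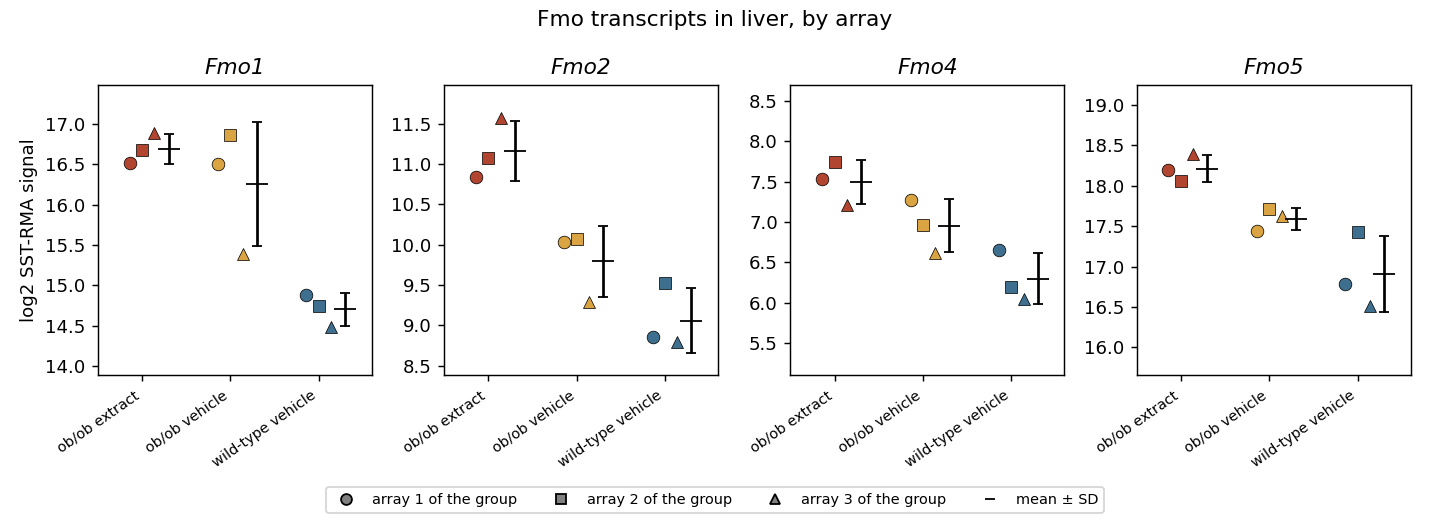
Log2 SST-RMA signal (y axis, each panel spanning the same height) of the 4 genes on each of the 9 arrays, by group along the x axis; circles, squares and triangles are arrays 1, 2 and 3 of a group, and bars are mean ± SD. Wild-type arrays have the lowest mean in each panel, the 2 vehicle groups overlap for *Fmo2* and *Fmo4*, and ob/ob vehicle 3 lies lowest of its group for *Fmo1*, *Fmo2* and *Fmo4*.

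*Fmo1* read 16.52, 16.68 and 16.89 log2 in ob/ob extract, 16.51, 16.86 and 15.39 in ob/ob vehicle, and 14.88, 14.75 and 14.48 in wild type. Every ob/ob array was above every wild-type array, while the 2 ob/ob groups overlapped, with ob/ob vehicle 3 the lowest of the 6. The means were 16.70 ± 0.19, 16.25 ± 0.77 and 14.70 ± 0.20 log2 (SD, n = 3 each) in the same order of groups.

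*Fmo2* read 10.84, 11.08 and 11.57 log2 in ob/ob extract, 10.03, 10.07 and 9.29 in ob/ob vehicle, and 8.86, 9.52 and 8.79 in wild type. The extract arrays lay above all 6 others, and wild-type vehicle 2 lay above ob/ob vehicle 3. The means were 11.16 ± 0.37, 9.80 ± 0.44 and 9.06 ± 0.40 log2 (SD, n = 3 each) for extract, ob/ob vehicle and wild type.

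*Fmo4* read 7.54, 7.75 and 7.21 log2 in ob/ob extract, 7.28, 6.97 and 6.62 in ob/ob vehicle, and 6.65, 6.20 and 6.05 in wild type. Neighbouring groups overlapped by 1 array each, and the extract and wild-type groups did not overlap. Means were 7.50 ± 0.27 for extract, 6.96 ± 0.33 for ob/ob vehicle and 6.30 ± 0.31 log2 for wild type (SD, n = 3 each).

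*Fmo5* read 18.19, 18.06 and 18.39 log2 in ob/ob extract, 17.44, 17.71 and 17.62 in ob/ob vehicle, and 16.78, 17.43 and 16.51 in wild type. Its 3 groups did not overlap, although the gap between ob/ob vehicle 1 and wild-type vehicle 2 was 0.01 log2. Means were 18.21 ± 0.17 for extract, 17.59 ± 0.14 for ob/ob vehicle and 16.91 ± 0.47 log2 for wild type (SD, n = 3 each).

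Vehicle-treated ob/ob liver was compared with wild-type liver to ask how these genes differed between the genotypes. *Fmo1* rose 2.93-fold (95% interval 1.70 to 5.05; log2 difference 1.55, SE 0.35, limma adjusted p = 0.0463), the 1 of 4 members called, where 2.28% of all clusters were called higher and 0.68% lower (2.96% in all). The others had log2 differences of 0.74 for *Fmo2* (SE 0.32, adjusted p = 0.275), 0.66 for *Fmo4* (SE 0.28, adjusted p = 0.259) and 0.68 for *Fmo5* (SE 0.27, adjusted p = 0.235), that is 1.67-, 1.58- and 1.61-fold, and did not pass the test. By the design text's looser rule, an unadjusted p under 0.05 and a linear fold over 1.1, all 4 were higher in limma's fit, as were 10.3% of all clusters. The groups did not overlap for 2 of 4, *Fmo1* and *Fmo5*, against 9.71% of all clusters in that direction. The median difference of the 4 was 0.71 log2, and that of all clusters was −0.06. Without the lowest 50% of clusters by mean, a filter that kept all 4 members, the median of the clusters was 0.13.

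The *Fmo1* call was close to the threshold. With the replicate number as a block its adjusted p in limma was 0.0548, and 0.0374 when that block was fitted on the 2 groups alone, a fit chosen after the data were seen. Leaving out ob/ob vehicle 3, the lowest *Fmo1* array of its group, gave a difference of 1.98 and an adjusted p of 0.00234. Dropping any other single array ended the call. The adjusted p was 0.165 (ob/ob vehicle 1 dropped) and 0.160 (ob/ob vehicle 2 dropped), and 0.0628, 0.143 and 0.136 for wild-type arrays 1, 2 and 3. It was 0.0724, 0.0861 and 0.0762 for extract arrays 1, 2 and 3, which enter this comparison only through the shared spread. Over the alternatives other than leaving out 1 array, it ran from 0.00188 to 0.137 (percentile ranks aside), the highest being from the fit on the 2 groups alone. With both ob/ob vehicle 3 and wild-type vehicle 3 dropped, the difference was 1.87 (adjusted p = 0.00246). A covariate for each array's interquartile range lowered the differences to 0.90 for *Fmo1* (adjusted p = 0.114), 0.30 for *Fmo2* (0.695) and 0.36 for *Fmo4* (0.586). With that covariate *Fmo5* moved less, to 0.55 (adjusted p = 0.415). Quantile normalization gave 0.38 for *Fmo2* (adjusted p = 0.565), 0.42 for *Fmo5* (0.523) and 0.58 for *Fmo4* (0.308).

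Extract-treated ob/ob liver was compared with ob/ob vehicle to ask what the extract changed. In limma 0 of 22206 clusters passed the adjusted threshold (0% called; 1433 had an unadjusted p under 0.05; smallest adjusted p = 0.593), and none of the 4 members did. *Fmo2* stood at rank 53 of all clusters by p: it was 2.58-fold higher on the linear scale (95% interval 1.57 to 4.23; log2 difference 1.37, SE 0.32, unadjusted p = 0.00155, adjusted p = 0.593), with all 3 extract arrays above all 3 vehicle arrays. *Fmo5* differed by 0.62 log2 (SE 0.27, unadjusted p = 0.0454, adjusted p = 0.767), also without overlap. *Fmo4* differed by 0.54 (95% interval −0.07 to 1.16, adjusted p = 0.787) and *Fmo1* by 0.44 (−0.34 to 1.23, adjusted p = 0.853). These intervals include 0 and also rises of over 1 log2, so they do not show that either gene was the same in both groups. The count of 0 clusters called depended on the arrays. It was 51 (0 higher) with ob/ob vehicle 3 dropped and 106 (27 higher) with array weights. With both ob/ob vehicle 3 and wild-type vehicle 3 dropped it was 360 (48 higher). None of the 4 members was called in these fits.

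By the design text's rule, 2 of 4 members were higher with the extract, *Fmo2* and *Fmo5*, where 3.56% of all clusters were. The same 2 had no overlap between groups, as did 7.47% of all clusters in that direction. The median difference of the 4 genes was 0.58 log2, against −0.01 for all clusters and −0.03 without the lowest 50% of them by mean. Array ob/ob vehicle 3 bore on these values: with it dropped the *Fmo1* difference was 0.01 and that of *Fmo2* 1.11 log2. The *Fmo1* difference was 0.75 with ob/ob vehicle 2 dropped and 0.06 with array weights. The adjusted p of *Fmo2* lay between 0.198 and 0.990 with 1 array left out and between 0.0569 and 0.760 under the other alternatives. Whichever array was left out, *Fmo2* stayed between 1.11 and 1.53, *Fmo4* between 0.38 and 0.70 and *Fmo5* between 0.54 and 0.70, with 0 calls for any of the 4.

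**Figure D2:**
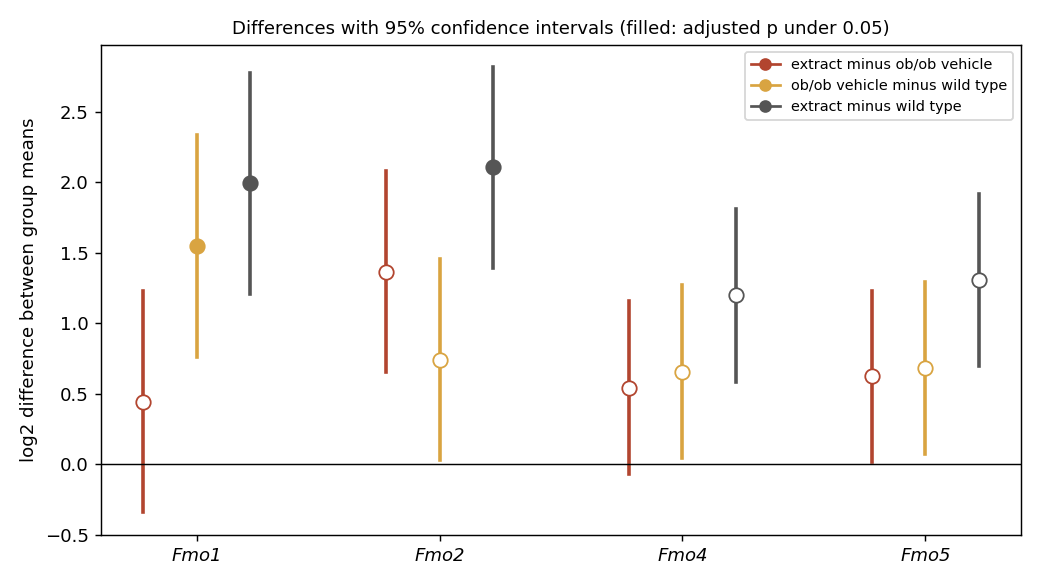
Log2 differences between group means (y axis) of the 4 genes (x axis) in the 3 comparisons, with 95% confidence intervals from limma; filled points passed an adjusted p of 0.05. All 12 differences are above 0, and the filled points are *Fmo1* in both comparisons with wild type and *Fmo2* in extract against wild type.

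Extract-treated ob/ob liver was also set against wild type. *Fmo2* rose 4.31-fold (95% interval 2.63 to 7.06; log2 difference 2.11, SE 0.32, adjusted p = 0.0124) and *Fmo1* rose 3.98-fold (2.31 to 6.86; log2 difference 1.99, SE 0.35, adjusted p = 0.0255), 2 of 4 members, where limma called 0.977% of all clusters higher and 0.315% lower (1.29% in all). *Fmo5* differed by 1.31 log2 (SE 0.27, adjusted p = 0.0508) and *Fmo4* by 1.20 (SE 0.28, adjusted p = 0.0759), 2.47- and 2.30-fold, without passing the test. All 4 met the design text's rule (8.21% of all clusters) and had no overlap between groups (11.1% of all clusters in that direction). The median difference of the 4 was 1.65 log2, against −0.05 for all clusters and 0.12 without the lowest 50% of them by mean. This comparison shares its extract arrays with the previous one and its wild-type arrays with the first, so the 3 sets of values are not independent.

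Single arrays changed these calls too. Dropping wild-type array 2 or 3 (adjusted p = 0.103 and 0.0922) or extract 1, 2 or 3 (0.0797, 0.126 and 0.104) ended that of *Fmo1*. That of *Fmo2* was lost without extract 2 or 3 (0.0705 and 0.0511). *Fmo5* gained a call with ob/ob vehicle 3 (0.0356) or wild-type array 2 (0.0431) dropped, and *Fmo4* with ob/ob vehicle 3 dropped (0.0383). In size the differences lay between 1.88 and 2.08 for *Fmo1*, 1.90 and 2.34 for *Fmo2*, 1.08 and 1.38 for *Fmo4*, and 1.11 and 1.57 for *Fmo5*, as the plot with 1 array left out shows. A covariate for the interquartile range gave 1.46 for *Fmo1* (limma adjusted p = 0.0229) and 1.74 for *Fmo2* (0.0177). With it *Fmo4* differed by 0.96 (0.159) and *Fmo5* by 1.20 (0.0956).

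**Figure D3:**
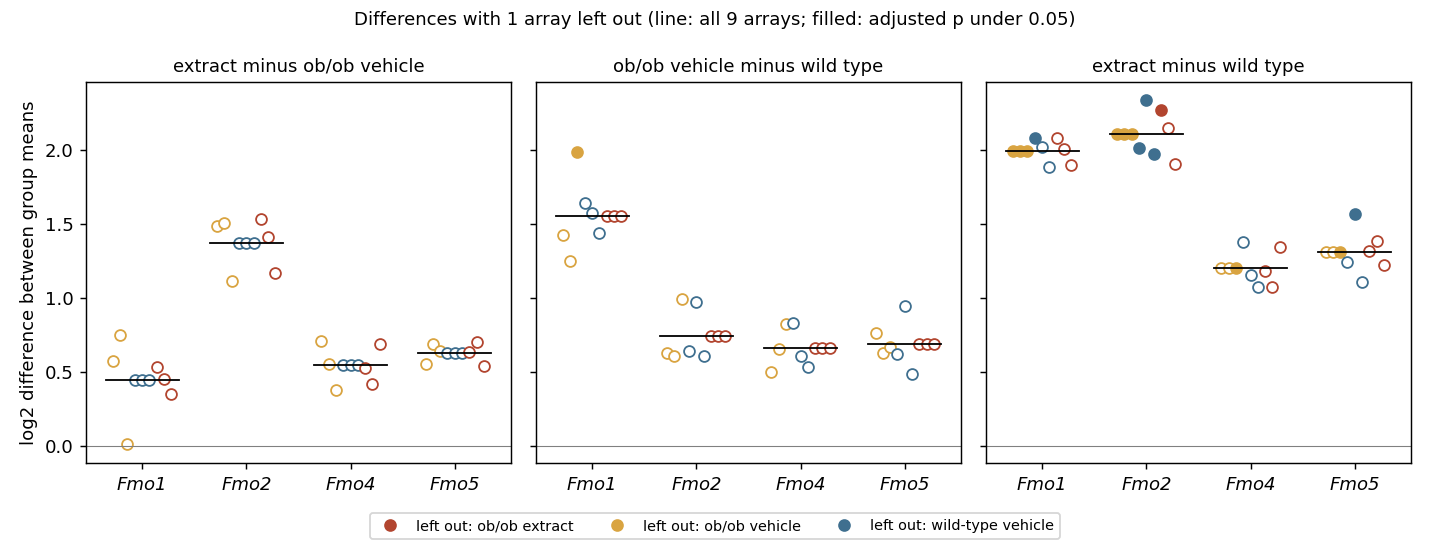
Log2 differences between group means (y axis) of the 4 genes (x axis) with each array left out in turn, coloured by the group of the array left out; the line is the value from all 9 arrays and filled points passed an adjusted p of 0.05. Every point is above 0, the lowest being 0.01 for *Fmo1* in extract against ob/ob vehicle without ob/ob vehicle 3.

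Over the 9 arrays the 4 genes moved together. Pearson's r was 0.924 for *Fmo2* with *Fmo5*, 0.878 for *Fmo1* with *Fmo4*, 0.864 for *Fmo1* with *Fmo2* and 0.824 for *Fmo1* with *Fmo5*. It was 0.823 for *Fmo2* with *Fmo4* and 0.760 for *Fmo4* with *Fmo5*. These values include the differences between the 3 groups. For deviations from group means r was 0.739 for *Fmo1* with *Fmo2* and 0.613 for *Fmo2* with *Fmo5*. It was 0.494 for *Fmo1* with *Fmo4*, 0.165 for *Fmo1* with *Fmo5*, 0.066 for *Fmo2* with *Fmo4* and −0.26 for *Fmo4* with *Fmo5*. The points are arrays of 3 groups that share normalization, so these are descriptions.

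The clusters whose values over the 9 arrays were most like each member's, by Pearson's r, were these. For *Fmo1* they were *Slc16a5*, a monocarboxylate transporter (0.993), *Net1* (0.983) and *Tprgl* (0.980). For *Fmo2* they were the oxidoreductase *Pyroxd1* (0.966), *Aifm2*, which encodes the ferroptosis suppressor FSP1 (0.965), and *Prl8a9* of the prolactin family (0.958). For *Fmo4* they were *Ice2* of the small nuclear RNA transcription complex (0.973), the pantothenate kinase *Pank3* (0.966) and *Taf1b* of RNA polymerase I (0.964). For *Fmo5* they were the kinetochore gene *Zwint* (0.954), *Carhsp1* (0.949) and the complex I subunit *Ndufb3* (0.947). Each was picked for its r among all clusters with 1 symbol, on 9 points, so a high value follows from the choice. With 1 array left out, *Slc16a5* kept an r of at least 0.992 with *Fmo1*, while the r of *Fmo5* was as low as 0.909 with *Ndufb3* and 0.924 with *Zwint*. After quantile normalization the r of *Fmo2* was 0.892 with *Aifm2* and 0.868 with *Prl8a9*.

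The other family genes measured were *Fmo6*, *Fmo9*, *Fmo12* (*Gm4847*) and *Fmo13* (*Gm4846*). None of them was above the silent-gene range on any of the 9 arrays, and 0 of 4 passed the test in any comparison. Group means for extract, ob/ob vehicle and wild type were 3.20, 2.99 and 3.04 log2 for *Fmo6* and 3.89, 4.06 and 3.69 for *Fmo9*. They were 3.75, 3.32 and 3.70 for *Fmo12* and 4.93, 4.94 and 4.93 for *Fmo13*. *Fmo6* lies beside *Fmo2* on chromosome 1, and its values in all 3 groups were those of genes that liver does not use. Cross-hybridisation between family members was not tested.

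Genes that supply the cofactors of these enzymes were measured in part. This list and those below were chosen with earlier results of these data known, so their counts are descriptions. Over all clusters 2.28% were called higher and 0.68% lower in ob/ob vehicle against wild type, and 0.977% and 0.315% in extract against wild type. Of 6 genes for NADPH and FAD supply, 1 rose and 0 fell in ob/ob vehicle against wild type (median difference 1.58 log2). It was *Rfk*, riboflavin kinase, the first step from riboflavin to FAD. *Rfk* was at 11.19 ± 0.51 log2 in extract, 12.28 ± 0.11 in ob/ob vehicle and 8.61 ± 1.08 for wild type (SD, n = 3 each). It rose by 3.67 in ob/ob vehicle (adjusted p = 0.00397), a call kept with each array left out, and by 2.58 in extract against wild type (adjusted p = 0.0286). In extract against ob/ob vehicle it differed by −1.09 (adjusted p = 0.767), where the 4 *Fmo* genes had differences above 0. The extract call of *Rfk* was lost without extract 1, 2 or 3 (0.0584, 0.162 and 0.114), ob/ob vehicle 2 (adjusted p = 0.0525) or wild-type array 2 or 3 (0.130 and 0.105), and with a covariate for the interquartile range (0.0522). The median difference of these 6 genes between extract and ob/ob vehicle was −0.68. With all 9 arrays 0 of 22206 clusters were called in that comparison, so no gene list here could hold a call in it.

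Of 7 genes of taurine synthesis, transport and conjugation, which include the enzymes that make the Fmo1 substrate hypotaurine, 0 rose and 0 fell in each of the 3 comparisons. Their median difference between ob/ob vehicle and wild type was −0.36 log2. Among them 3 enzymes that lead to hypotaurine, named outside the rule, lay on both sides of 0. The cysteine sulfinate decarboxylase *Csad* differed by −1.85 (adjusted p = 0.217), the cysteine dioxygenase *Cdo1* by −0.51 (adjusted p = 0.360) and the cysteamine dioxygenase *Ado* by 0.96 (adjusted p = 0.217). *Gadl1* of the same list, also named outside the rule, differed by −0.36 (limma adjusted p = 0.529).

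Of 15 genes of choline and methionine metabolism 3 rose and 0 fell in ob/ob vehicle against wild type (2.28% and 0.68% of all clusters, median of the list 0.75 log2). They were the methionine sulfoxide reductase *Msra* (2.41, adjusted p = 0.0135), the methyltransferase *Bhmt2* (2.21, adjusted p = 0.0308) and dimethylglycine dehydrogenase, *Dmgdh* (2.89, adjusted p = 0.0422). In extract against wild type 1 rose, *Bhmt2* (2.36, adjusted p = 0.0340), with *Dmgdh* at 2.80 (0.0728) and *Msra* at 1.19 (0.212). Set against ob/ob vehicle, extract gave −1.22 (*Msra*), 0.15 (*Bhmt2*) and −0.09 (*Dmgdh*), with adjusted p of 0.741 to 0.989. Single arrays ended these calls. The ob/ob vehicle call of *Msra* was lost with ob/ob vehicle 1 or 2 dropped (adjusted p = 0.0617 and 0.0626) or wild-type array 2 or 3 (0.0611 and 0.0520). That of *Bhmt2* was lost with ob/ob vehicle 1 or 2 dropped (0.123 and 0.118), wild-type array 2 or 3 (0.107 and 0.0991) or extract 2 or 3 (0.0528 and 0.0557). That of *Dmgdh* was lost with ob/ob vehicle 1 or 2 dropped (0.145 and 0.114), wild-type array 2 or 3 (0.156 and 0.126) or extract 2 (0.0786). The extract call of *Bhmt2* was lost without extract 1, 2 or 3 (0.0632, 0.187 and 0.122), ob/ob vehicle 2 (0.0503) or wild-type array 2 or 3 (0.125 and 0.116). With only the 2 groups compared, the ob/ob vehicle calls of *Msra* (adjusted p = 0.0504), *Bhmt2* (0.0848) and *Dmgdh* (0.0801) ended. That of *Dmgdh* also ended after quantile normalization (0.0546), with the interquartile range covariate (0.102) and with the replicate block (0.0650).

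Of 13 other oxidising and hydrolysing enzymes outside the P450s, 3 rose and 1 fell in ob/ob vehicle against wild type (2.28% and 0.68% of all clusters, median of the list 0.29 log2). The aldehyde oxidase *Aox3* fell by 2.70 (adjusted p = 0.00501). The epoxide hydrolase *Ephx1* rose by 1.76 (adjusted p = 0.0266) and the monoamine oxidase *Maoa* by 1.73 (adjusted p = 0.0288), and the carbonyl reductase *Cbr1*, named outside the rule, by 2.25 (adjusted p = 0.0402). *Maoa* was not above the silent-gene range on any wild-type array, so the size of its change may be a bound. In extract against wild type *Aox3* fell by 3.22 (adjusted p = 0.00256), *Ephx1* rose by 2.08 (adjusted p = 0.0166) and *Cbr1* by 2.66 (adjusted p = 0.0286), with *Maoa* at 1.61 (0.0544). Between extract and ob/ob vehicle the differences were −0.53, 0.33 and −0.12 for *Aox3*, *Ephx1* and *Maoa*, with adjusted p of 0.845 to 0.970. *Aox3* kept both calls with each array left out. The ob/ob vehicle call of *Ephx1* was lost with ob/ob vehicle 1 or 2 dropped (0.109 and 0.112), wild-type array 1 or 2 (0.0525 and 0.0844) or extract 2 (0.0560), and its extract call without extract 1 or 2 (0.0805 and 0.0861) or wild-type vehicle 2 (0.0701). That of *Maoa* was lost with ob/ob vehicle 1 or 2 dropped (0.0504 and 0.0731), wild-type array 1 or 2 (0.0589 and 0.117) or extract 2 or 3 (0.0582 and 0.0518). Quantile normalization ended the calls of *Ephx1* in both ob/ob vehicle (1.40, adjusted p = 0.0924) and extract (1.79, adjusted p = 0.0630) and that of *Maoa* (0.0518). With only the 2 groups compared, the ob/ob vehicle calls of *Ephx1* (0.0793) and *Maoa* (0.102) ended too. The calls of *Cbr1* were not checked with arrays left out or under the other alternatives.

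Of 4 genes of microsomal electron transfer, the cytochrome b5 system and *Pgrmc1*, 0 were called in any comparison, with a median difference of 1.05 log2 between ob/ob vehicle and wild type and −0.39 between extract and ob/ob vehicle. Of 9 genes of the aryl hydrocarbon receptor battery 1 rose and 1 fell in ob/ob vehicle against wild type (2.28% and 0.68% of all clusters, median of the list −0.03). The quinone reductase *Nqo1* rose by 3.49 (adjusted p = 0.00326) and *Cyp1a2* fell by 2.79 (adjusted p = 0.0449). *Nqo1* rose by 4.26 in extract against wild type (adjusted p = 0.00121) and kept both calls with each array left out, while *Cyp1a2* differed by −1.61 (0.283). Between extract and ob/ob vehicle these 2 differed by 0.76 and 1.18 (adjusted p = 0.810 and 0.798). The *Cyp1a2* call was lost with ob/ob vehicle 1, 2 or 3 dropped (0.143, 0.0626 and 0.0511), wild-type array 1, 2 or 3 (0.0832, 0.169 and 0.0706) or extract 1 or 3 (0.0602 and 0.0650). It also ended with array medians subtracted (0.0632), with only the 2 groups compared (0.0601) and with the replicate block (0.0650). *Nqo1* was above the silent-gene range on 2 of 3 wild-type arrays, so the size of its change may be a bound.

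*Fmo1* is one of the genes that female mouse liver has more of, so sex-biased genes were counted beside it. Both lists were chosen with earlier results of these data known. Of 21 female-biased genes 13 rose and 0 fell in ob/ob vehicle against wild type (median difference 3.27 log2), and 11 rose in extract against wild type. Over all clusters 2.28% and 0.977% were called higher in these 2 comparisons. Of 21 male-biased genes 14 fell and 0 rose in ob/ob vehicle (median −3.00), and 11 fell in extract against wild type. Over all clusters 0.68% and 0.315% were called lower. In extract against ob/ob vehicle, where 0 of all 22206 clusters were called, the medians were −0.04 and 0.06 for the female-biased and male-biased genes. Those with the smallest p in ob/ob vehicle against wild type were the P450 *Cyp2b9* (11.81) and the sulfotransferases *Sult1e1* (10.06) and *Sult2a2* (6.93) among the female-biased, and the steroid dehydrogenase *Hsd3b5* (−9.86), the transporter *Slco1a1* (−11.15) and the oxysterol hydroxylase *Cyp7b1* (−6.47) among the male-biased. In extract against wild type these 6 differed by 12.09, 10.76, 6.21, −9.42, −11.35 and −5.91 in the same order. All 6 kept both calls with each array left out, with adjusted p in limma of 2.94e-07 to 0.00145 for ob/ob vehicle and 2.84e-07 to 0.00307 for extract. Extract against ob/ob vehicle gave 0.27, 0.70, −0.72, 0.44, −0.20 and 0.56. Their low values in wild type (*Cyp2b9*, *Sult1e1*, *Sult2a2*) or in both ob/ob groups (*Hsd3b5*, *Slco1a1*) lay in the silent-gene range on at least 2 of 3 arrays, so the sizes of those changes may be bounds. The part of the sex-biased pattern in the *Fmo1* difference was not tested.

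Markers of other liver cells were examined because *Fmo2* is best known from another organ, the lung. Of 10 stellate cell and fibroblast markers 7 were above the silent-gene range on each extract array, 5 to 7 on ob/ob vehicle arrays and 3 to 9 on wild-type arrays. Their mean level was 6.82 to 6.96 log2 in extract, 6.74 to 7.22 in ob/ob vehicle and 6.56 to 7.19 for wild type, with a median difference of −0.15 between extract and ob/ob vehicle, where *Fmo2* differed by 1.37. Sinusoidal endothelial markers averaged 7.22 to 7.59 in extract, 7.08 to 8.12 in ob/ob vehicle and 7.38 to 7.70 for wild type (median difference −0.22 between extract and ob/ob vehicle). For 9 Kupffer cell and macrophage markers the levels were 5.70 to 6.75, 6.95 to 7.16 and 6.35 to 6.99, with a median difference of −0.74. As 0 of 22206 clusters were called between extract and ob/ob vehicle, no marker could be among them, and a count of calls there does not describe these cells. The part of these 3 lists in the *Fmo2* difference was not tested. Cholangiocyte, adipocyte and T and NK cell markers had median differences of 0.17, 0.06 and 0.02 between extract and ob/ob vehicle. In extract against wild type, where *Fmo2* was called, 0 markers of any list were called (1.29% of all clusters). The median differences were −0.48 for Kupffer cell, −0.09 for endothelial and −0.06 for stellate cell markers. They were 0.24 for adipocyte, 0.02 for cholangiocyte and −0.22 for T and NK cell markers. In ob/ob vehicle against wild type, where *Fmo1* was called, the Kupffer cell, endothelial and stellate cell medians were 0.53, 0.28 and 0.19. Those of cholangiocyte and of T and NK cell markers were −0.13 and −0.16. There, where 2.28% of all clusters were called higher, 1 of 10 stellate cell markers, *Rgs5*, rose by 1.93 (adjusted p = 0.0427). Likewise 1 of 7 adipocyte markers, *Fabp4*, rose by 1.89 (adjusted p = 0.0235), while the median difference of those 7 was −0.09. Both genes were named after their values were seen, and neither call was checked with arrays left out. The part of these cells in the *Fmo1* and *Fmo2* differences from wild type was not tested.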

How the data were processed

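Each array's log2 values, as the authors deposited them, were made by SST-RMA in Transcriptome Analysis Console 4.0.2, per the labels' design text. The genome build of the array is not given in the sources used here, so positions come only with the RefSeq windows (GRCm38.p6). Detection calls were not used here. Each array is 1 sample, and a p-value from limma sets a difference of group means against the spread between arrays, moderated over all clusters. The number of arrays, 3 per group, limits the precision.

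Symbols came from GEO's platform annotation (19572 of 22206 clusters with 1 symbol, 2634 with none); all Entrez identifiers matched RefSeq, and 0 symbols changed. 1 further family gene was not analysed here. No member cluster had values identical to another cluster's.

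Tests used limma 3.58.1 (R 4.3.3) with a mean per group over all 9 arrays (6 residual and 4.45 prior degrees of freedom), two-sided, Benjamini-Hochberg adjustment over all 22206 clusters, called at adjusted p under 0.05. The design text's rule (unadjusted p under 0.05, linear fold over 1.1) is given beside it. In simulated data with independent noise on each array, the estimated differences followed the changes put in. Those data held no array lying away from its group and no shared deviations of same-numbered arrays. They therefore do not show how often differences of the members' size would be called here. The members, gene lists and motifs were chosen with earlier results of these data known. Named genes are the members and measured family genes, up to 3 called genes of each list by smallest p, and the 3 clusters most like each member by Pearson's r (predicted genes, receptors of smell and pheromones and small RNAs left out).

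Replicate numbers are shared between groups. Deviations from group means of same-numbered arrays correlated at 0.256, 0.262 and 0.450 between ob/ob vehicle and wild type, over the 0.1 set for pairing in all 3 pairs. Deviations within a group of 3 sum to 0, so these 3 values are not independent. The highest was for the arrays numbered 3, which lay away from their groups and had narrow interquartile ranges. What the numbers stand for is not given in the sources used here. Correlations with the extract group lay between −0.21 and 0.016 and did not pair. Alternatives were other normalizations, filters, spread models, weights, covariates, blocks and left-out arrays.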

Additional observations from a re-analysis of the deposited data

How the results depend on the processing

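The 12 differences of the 4 *Fmo* genes were above 0 under all alternatives run; the calls were not as stable, and the cause was not tested. Of these 12, the *Fmo1* difference between ob/ob vehicle and wild type lost its call after quantile normalization (1.17, adjusted p = 0.0992), with array medians subtracted (1.67, 0.0567), with only the 2 groups compared (1.55, 0.137), with trend and robust set in eBayes (1.55, 0.0689), with a covariate for the interquartile range (0.90, 0.114) and with the replicate block (1.55, 0.0548). On percentile ranks *Fmo1* lay between 98.4 and 99.2 on all 9 arrays, so that scale could show little change in it: the difference was 0.56 percentile points (0.887), and 0.77 (0.821) in extract against wild type. The extract call of *Fmo2* was lost on that scale (6.51, 0.169), as were 10 of 15 calls of named list genes in ob/ob vehicle and 7 of 11 in extract against wild type. *Fmo5* in extract against wild type was called with medians subtracted (1.45), without the lowest 30% or 50% of clusters (1.31 each) and with array weights (1.13), as was *Fmo4* with array weights (1.20). The replicate block changed no other call of a member, and of the named list genes it ended those of *Dmgdh* and *Cyp1a2* in ob/ob vehicle against wild type (adjusted p = 0.0650 each).

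With 1 array left out, *Fmo1* lay between 1.25 and 1.98 in ob/ob vehicle against wild type and between 1.88 and 2.08 in extract against wild type, where *Fmo2* lay between 1.90 and 2.34, *Fmo4* between 1.08 and 1.38 and *Fmo5* between 1.11 and 1.57. Clusters called numbered 147 to 1679 in ob/ob vehicle against wild type (658 with all arrays), 0 to 51 in extract against ob/ob vehicle (0) and 77 to 598 in extract against wild type (287). For the same comparisons, percentile ranks called 64 and 51 clusters in the first and last, array weights 2137, 106 and 796, and dropping both ob/ob vehicle 3 and wild-type vehicle 3 gave 1745, 360 and 595. Only the 2 groups compared gave 207 in the first, and the interquartile range 1 in the second. Of the clusters called, 507 of 658 were higher in the first comparison and 217 of 287 in the last, against 290 of 546 and 153 of 250 after quantile normalization and 541 of 853 and 177 of 324 with the interquartile range. Subtracting array medians moved the median difference of all clusters to 0.06 in the first (−0.06 as deposited) and 0.09 in the last (−0.05).

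Between extract and ob/ob vehicle, differences of 7 named genes, none of them called, changed sign. With 1 array left out, *Dmgdh* ran from −0.57 to 0.46, *Bhmt2* from −0.30 to 0.45, *Maoa* from −0.36 to 0.23, *Cyp2b9* from −0.37 to 0.73, *Slco1a1* from −0.46 to 0.26, *Sult1e1* from −0.68 to 1.79 and *Sult2a2* from −1.26 to 0.10. *Dmgdh* was 0.017 after quantile normalization, 0.079 with array weights and 0.044 with the interquartile range. Array weights gave −0.092 for *Bhmt2*, 0.10 for *Maoa*, −0.30 for *Cyp2b9* and 0.22 for *Slco1a1*, and dropping that pair of arrays gave −0.30, 0.23, −0.37 and 0.26. No member has a second cluster, so that alternative gave no value.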
